A study of Mus musculus with 120 samples.

Results

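The comparison set the hypothalamus of Sleepy mice against that of wild-type mice, with 2 times of day pooled. Its members were the 16 hypothalamus libraries of mice that received eGFP, out of 120 libraries in the series, chosen by their titles: 8 of Sleepy mice and 8 of wild-type mice. Each genotype had 4 libraries at ZT12.5 and 4 at ZT0.5, where ZT counts hours from lights on in a cycle of 12 h light and 12 h dark. Sleepy mice carry 1 copy of an allele of Sik3 that lacks exon 13 (Sik3E13Δ/+), and the wild-type mice carry none. Both genotypes are on the C57BL/6J strain, and both received an adeno-associated virus coding for the fluorescent protein eGFP by injection behind the eye 3 weeks before dissection, so the virus is shared by all 16 libraries. The promoter of that virus and the age and sex of the mice are not given in the sources used here. The replicates are described as biological, with no statement of which animals they came from.

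Sik3 (salt-inducible kinase 3) is a kinase of the AMPK family. Protein kinase A phosphorylates it, which lets 14-3-3 proteins bind and hold its activity down, and active salt-inducible kinases phosphorylate class IIa histone deacetylases and the CRTC coactivators of CREB and so keep them out of the nucleus. The Sleepy allele is known for long non-REM sleep and high sleep need. The hypothalamus holds the neurons that make orexin, galanin, melanin-concentrating hormone and other peptides of sleep, arousal and feeding, and the clock of the suprachiasmatic nucleus.

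The exon that the Sleepy allele lacks is shown because it is the genotype difference stated between Sleepy and wild-type mice. In the GENCODE M21 annotation of GRCm38, exon 13 of the 25 exons of transcript ENSMUST00000126865 lies at chr9:46198552-46198707 on the plus strand. It has 156 bases, a multiple of 3, and starts on the first base of a codon. The capitals mark the 1 in-frame run of codons for Arg-Arg-any-Ser, the motif that protein kinase A recognises:
Sik3 exon 13: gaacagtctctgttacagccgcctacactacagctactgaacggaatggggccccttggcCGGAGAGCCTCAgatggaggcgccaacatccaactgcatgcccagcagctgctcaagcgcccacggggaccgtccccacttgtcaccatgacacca
This exon is 1.67% of the 9318 bases of exons annotated to Sik3, so a level summed over the gene says nothing about the loss of 1 copy of it.

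The 16 libraries held 14.9 M to 24.5 M reads assigned to genes, recovered from the step size of the deposited values. Levels are given as FPKM (read counts divided by gene length and library size) rescaled between libraries, and differences as log2 of Sleepy over wild type ± SE; a difference given without a call did not pass the test. The 12 hypothalamic markers summed to 515 to 696.5 FPKM in wild-type hypothalamus as deposited, against 37.0 to 116 in wild-type thalamus and 2.67 to 6.05 in wild-type cortex. Some libraries stood apart in markers of neighbouring tissue. The 8 meninges markers summed to between 352 and 507 in 4 libraries (wild type at ZT0.5 replicate 3, Sleepy at ZT12.5 replicate 1 and Sleepy at ZT0.5 replicates 3 and 4) and to at most 207 in the other 12. The 10 thalamus markers summed to 131 in Sleepy at ZT12.5 replicate 4 and to at most 99.2 in the others. Between ZT12.5 and ZT0.5, 449 of 17250 genes (2.60%) differed over the same 16 libraries.

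The gene with the altered allele was read first. Sik3 (ENSMUSG00000034135, chr9:46012820-46224194) stood at 13.5, 12.2, 12.4 and 13.02 in wild type at ZT12.5 and at 11.6, 11.9, 12.1 and 11.96 in Sleepy at ZT12.5. At ZT0.5 the wild-type libraries held 13.8, 12.9, 12.6 and 13.2 and the Sleepy libraries 12.3, 12.1, 12.9 and 12.6. The Sleepy libraries were slightly lower, 5 of 8 lay below every wild-type library, and the groups overlapped. The log2 difference was −0.088 ± 0.029 (SE), which did not pass the test across all genes (adjusted p = 0.487; unadjusted p = 0.00736).

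Over both times, 7 of 17250 genes tested differed between Sleepy and wild-type hypothalamus (0.0406%) at an adjusted p under 0.05 in limma with time as a block, 4 higher and 3 lower. Without adjustment, 1273 genes (7.38%) had p under 0.05, 589 higher (3.41%) and 684 lower (3.97%) in Sleepy mice. The median over all genes was a log2 difference of −0.0027. The largest change among the 7 was a fall of the feeding peptide gene Npy, and the other 6 changed by at most 1.24-fold. The count fell to 0 when any of 10 of the 16 libraries was left out (all 4 Sleepy libraries at ZT12.5 among them), and to 0 without the 4 libraries rich in meninges markers or without Sleepy at ZT12.5 replicate 4. It was also 0 without rescaling, with no filter on low values, and with no trend and no robust variances. Adding the replicate number as a block gave 0 as well.

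**Figure D1:**
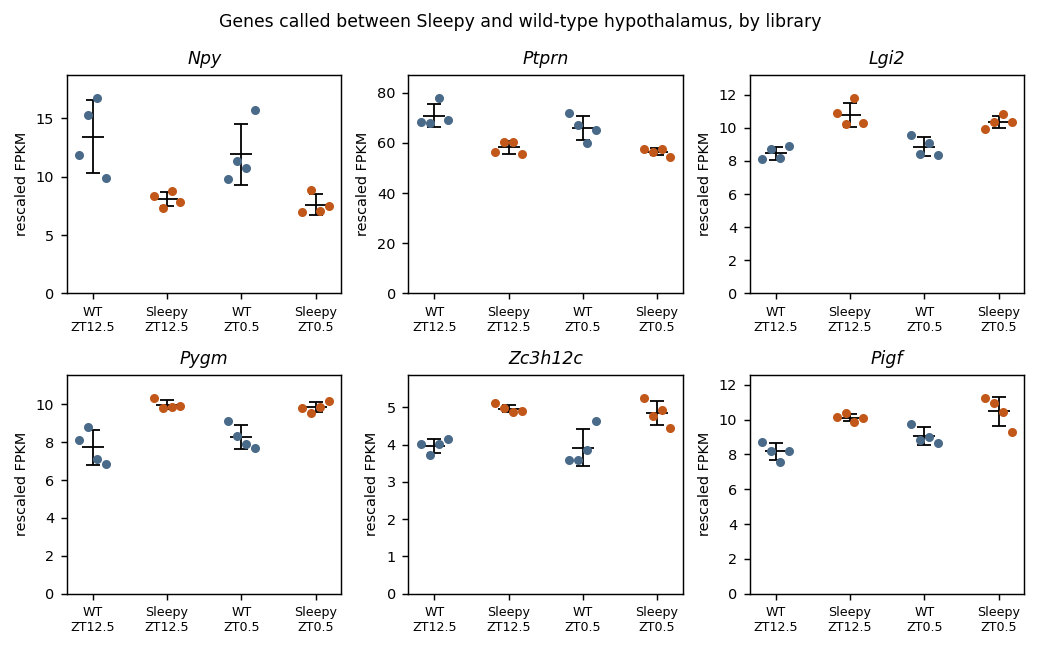
Levels of the 6 named genes called over both times in the 4 groups of hypothalamus libraries (rescaled FPKM, each axis from 0). Points are libraries and bars the mean and SD of 4; all 8 Sleepy libraries lay below all 8 wild-type libraries for Npy and above them for Lgi2 and Pygm, while Ptprn, Zc3h12c and Pigf overlapped between genotypes.

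Npy (ENSMUSG00000029819, chr6:49822710-49829507) codes for neuropeptide Y, which arcuate neurons release together with AgRP to drive feeding. It stood at 11.8, 15.3, 16.7 and 9.93 FPKM in wild type at ZT12.5 and at 8.37, 7.33, 8.73 and 7.87 in Sleepy mice. At ZT0.5 the values were 9.80, 11.3, 10.8 and 15.7 in wild type and 6.97, 8.86, 7.09 and 7.48 in Sleepy mice. Every Sleepy library lay below every wild-type library, and the wild-type libraries were also more spread. The means were 7.84 ± 0.740 in Sleepy and 12.7 ± 2.79 in wild-type mice (SD, n = 8 each), a 1.58-fold fall (log2 −0.66 ± 0.11 SE; limma adjusted p = 0.0374). In bulk tissue, fewer cells of a type and less RNA per cell cannot be told apart. Agrp, the partner peptide of the same neurons, gave 1.29, 1.76 and 2.54 FPKM in Sleepy mice (lowest, median and highest of 8) and 1.67, 2.20 and 2.55 in wild type, with a log2 difference of −0.26 ± 0.13 that did not pass (adjusted p = 0.684). Pomc, the precursor of the opposing melanocortin, gave 11.6, 16.5 and 22.1 in Sleepy mice and 13.7, 16.8 and 24.5 in wild type (log2 −0.074 ± 0.14).

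Ptprn (ENSMUSG00000026204, chr1:75247027-75264502) codes for a membrane protein of dense-core secretory vesicles, the organelles that store neuropeptides. Its levels were 68.4, 68.05, 77.9 and 69.2 FPKM in wild type and 56.4, 60.3, 60.2 and 55.7 in Sleepy mice at ZT12.5. At ZT0.5 they were 71.8, 66.95, 59.99 and 65.2 in wild type and 57.7, 56.4, 57.4 and 54.5 in Sleepy mice. Wild type at ZT0.5 replicate 3, the library richest in meninges markers, was the lowest of its genotype and lay just within the Sleepy range. Ptprn fell 1.19-fold, from 68.4 ± 5.15 to 57.3 ± 2.06 (SD, n = 8 each; log2 −0.25 ± 0.038 SE; adjusted p = 0.0369). The third lower gene, Gm28294, is annotated on the opposite strand within Ptprn (chr1:75252322-75257427) and fell with it (log2 −0.24 ± 0.041; adjusted p = 0.0374). No source used here gives the strand setting of the counting, so reads of the pair cannot be told apart.

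The 4 genes that rose were Lgi2, Pygm, Zc3h12c and Pigf. Lgi2 (ENSMUSG00000039252, chr5:52533517-52566462), which codes for a secreted neuronal protein of the LGI family, stood at 8.10, 8.72, 8.15 and 8.87 in wild type and 10.9, 10.2, 11.8 and 10.3 in Sleepy mice at ZT12.5. At ZT0.5 it stood at 9.57, 8.40, 9.09 and 8.38 in wild type and 9.94, 10.3, 10.8 and 10.3 in Sleepy mice. The genotypes did not overlap, and the rise was 1.22-fold (log2 0.28 ± 0.042 SE; adjusted p = 0.0369). Pygm (ENSMUSG00000032648, chr19:6384399-6398459) is the muscle form of glycogen phosphorylase, which frees glucose from glycogen and in brain is found in astrocytes. Its wild-type libraries held 8.12, 8.80, 7.13 and 6.84 at ZT12.5 and 9.13, 8.33, 7.91 and 7.71 at ZT0.5, and its Sleepy libraries 10.3, 9.79, 9.86 and 9.92 and 9.83, 9.53, 9.84 and 10.2. Again no Sleepy library lay within the wild-type range (1.24-fold, log2 0.31 ± 0.050; adjusted p = 0.0374).

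Zc3h12c (ENSMUSG00000035164, chr9:52111344-52168572) codes for a ribonuclease of the Regnase family, and lies on the chromosome of Sik3. It stood at 4.01, 3.71, 4.01 and 4.16 in wild type and 5.10, 4.98, 4.88 and 4.90 in Sleepy mice at ZT12.5, and at 3.59, 3.60, 3.85 and 4.64 in wild type and 5.24, 4.77, 4.93 and 4.46 in Sleepy mice at ZT0.5. The genotypes were apart except that wild type at ZT0.5 replicate 4 exceeded the lowest Sleepy library (1.24-fold, log2 0.31 ± 0.052; adjusted p = 0.0374). Pigf (ENSMUSG00000024145, chr17:86997256-87025406), which takes part in making the lipid anchor of GPI-linked membrane proteins, stood at 8.73, 8.19, 7.59 and 8.18 in wild type and 10.1, 10.4, 9.85 and 10.1 in Sleepy mice at ZT12.5 and at 9.78, 8.81, 9.03 and 8.66 in wild type and 11.2, 10.9, 10.4 and 9.32 in Sleepy mice at ZT0.5. All but 1 Sleepy library lay above all wild-type libraries (1.19-fold, log2 0.26 ± 0.043; adjusted p = 0.0374). Across all genes, 9 of 17250 (0.0522%) had groups of 8 that did not overlap. Of these, Npy, Lgi2 and Pygm were called, and Vgf, Marcksl1, Ppme1, Lama5, Arhgef15 and Kcna4 were not, the last 3 being named after their values were seen.

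Promoters of 4 called genes are shown because CREB, which salt-inducible kinases act on through the CRTC coactivators, binds the cAMP response element TGACGTCA and its shorter core TGACG. Both motifs were searched on both strands, so that the core also counts as CGTCA, and each full element contains the core on each strand. Each window runs from 250 bases before to 50 after an annotated start (RefSeq, GRCm38.p6), written 5′ to 3′ on the gene's strand, with the core in capitals. The windows are Npy (chr6:49822460-49822759, plus strand), Ptprn (chr1:75264159-75264458, minus strand, the first of 2 listed starts), Lgi2 (chr5:52566257-52566556, minus strand) and Pigf (chr17:87025352-87025651, minus strand).
Npy: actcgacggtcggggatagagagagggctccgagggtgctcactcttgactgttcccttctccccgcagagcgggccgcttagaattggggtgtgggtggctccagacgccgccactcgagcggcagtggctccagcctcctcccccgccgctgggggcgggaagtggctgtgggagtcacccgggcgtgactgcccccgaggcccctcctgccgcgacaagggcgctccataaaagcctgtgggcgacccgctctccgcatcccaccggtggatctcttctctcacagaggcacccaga
Ptprn: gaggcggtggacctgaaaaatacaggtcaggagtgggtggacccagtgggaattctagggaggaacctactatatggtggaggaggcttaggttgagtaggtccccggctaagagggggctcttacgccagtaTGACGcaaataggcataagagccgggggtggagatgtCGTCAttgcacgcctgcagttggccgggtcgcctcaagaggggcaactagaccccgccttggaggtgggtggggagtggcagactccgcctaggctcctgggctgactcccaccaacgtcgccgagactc
Lgi2: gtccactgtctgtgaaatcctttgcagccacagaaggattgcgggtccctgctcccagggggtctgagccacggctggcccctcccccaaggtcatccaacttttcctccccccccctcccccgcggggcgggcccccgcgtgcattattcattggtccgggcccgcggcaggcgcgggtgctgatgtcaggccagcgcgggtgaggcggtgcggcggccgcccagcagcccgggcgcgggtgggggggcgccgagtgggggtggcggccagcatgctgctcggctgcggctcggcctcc
Pigf: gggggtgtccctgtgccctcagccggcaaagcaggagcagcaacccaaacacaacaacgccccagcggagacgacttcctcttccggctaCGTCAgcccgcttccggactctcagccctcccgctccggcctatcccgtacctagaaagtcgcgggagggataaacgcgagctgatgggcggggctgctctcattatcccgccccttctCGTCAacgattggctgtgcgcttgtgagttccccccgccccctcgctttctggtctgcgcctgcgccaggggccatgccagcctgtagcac
The Ptprn window held the core at 117 and 80 bases before the start and the Pigf window at 160 and 41, while the letters of the core were not in the Npy and Lgi2 windows. Of the windows not shown, that of the second Ptprn start, that of Pygm and that of the first Zc3h12c start lacked those letters, and that of the second Zc3h12c start held them once, 133 bases before the start. The full element was in none of these 8 windows. Of 32851 promoters in the table, 20.8% held the core and 1.79% the full element.

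Below the threshold, the negative differences with the smallest p were led by Gal and Sik1. Gal, the gene of galanin, which sleep-active neurons of the preoptic area release, stood at 17.5, 15.8, 19.4 and 16.6 in wild type and 11.6, 15.1, 12.9 and 10.6 in Sleepy mice at ZT12.5. At ZT0.5 it stood at 20.03, 15.9, 14.3 and 14.4 in wild type and 11.01, 12.7, 12.7 and 12.9 in Sleepy mice, and 7 of 8 Sleepy libraries lay below all wild-type libraries (log2 −0.42 ± 0.079; adjusted p = 0.125). Sik1, a kinase paralog of Sik3 and a textbook CREB target, gave 2.66, 2.99 and 3.35 in Sleepy mice (lowest, median and highest of 8) and 3.29, 3.68 and 4.18 in wild type (log2 −0.29 ± 0.058; adjusted p = 0.139). The rest of the 10 lowest-p negative differences were, beside Npy and Ptprn, Marcksl1 (log2 −0.19), which binds actin, Ly6h (−0.16), a modulator of nicotinic receptors, and Gpx3 (−0.26), the secreted glutathione peroxidase. The same group held Rnf31 (−0.24), a subunit of the linear ubiquitin ligase, Ppme1 (−0.11), which demethylates the phosphatase PP2A, and Ccdc65 (−0.39) of motile cilia. Their adjusted p-values ran from 0.125 to 0.139, so none passed.

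On the positive side, the genes next to the 4 called were Nrep (log2 0.33 ± 0.066; adjusted p = 0.139), Hdac9 (0.26 ± 0.055; 0.179) and Card19 (0.53 ± 0.11; 0.184), none of which passed. Hdac9 is a class IIa histone deacetylase, the group of proteins that salt-inducible kinases phosphorylate, and gave 1.91, 2.08 and 2.34 FPKM in Sleepy mice (lowest, median and highest) against 1.57, 1.69 and 1.92 in wild type. Fyco1 (log2 0.21), an adaptor for autophagosome transport, Rgs4 (0.18), which turns off G proteins, and Vps37b (0.24) of the ESCRT-I complex completed the 10, with adjusted p-values of up to 0.279.

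Of 21 neuropeptide genes of arousal and sleep with enough reads (27 listed), none was called, and 17 had negative differences, beside 51.4% of all genes. The median log2 difference was −0.21, beside −0.0027 for all genes. Of the 21, 8 had an unadjusted p under 0.05, all in the negative direction, where 3.97% of all genes did so. On leaving out 1 library, 6 to 8 negative and 0 to 1 positive genes were at that p. A positive gene appeared without wild type at ZT12.5 replicate 3 or at ZT0.5 replicate 1. Hcrt, the orexin precursor of arousal-promoting lateral neurons, stood at 58.2, 60.1, 52.1 and 63.5 in wild type and 36.5, 50.3, 34.8 and 43.5 in Sleepy mice at ZT12.5. At ZT0.5 it stood at 48.1, 51.7, 47.7 and 51.7 in wild type and 39.1, 43.02, 26.6 and 49.9 in Sleepy mice. Of the Sleepy libraries 6 of 8 lay below all wild-type libraries (log2 −0.44 ± 0.11; adjusted p = 0.306). Pdyn, the dynorphin precursor made in the same neurons, differed by −0.24 ± 0.080 (adjusted p = 0.489) and Pnoc, the nociceptin precursor, by −0.32 ± 0.11 (0.491). Pmch, the melanin-concentrating hormone gene of neighbouring lateral neurons, did not follow: it gave 219, 225 and 247 in Sleepy mice and 185, 224 and 255 in wild type (log2 0.044 ± 0.046; adjusted p = 0.862).

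**Figure D2:**
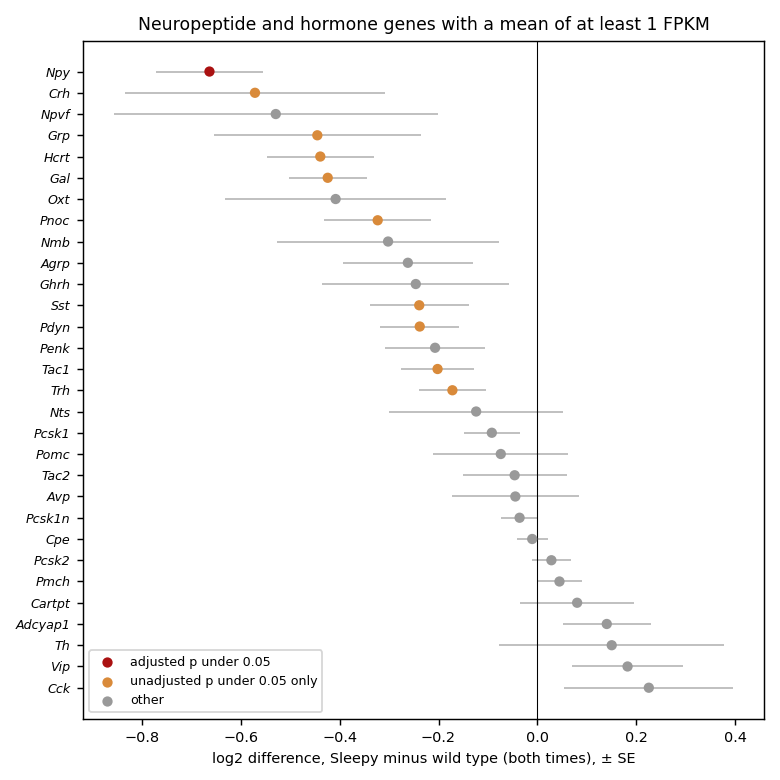
Log2 difference (Sleepy minus wild type over both times, bars ± SE) of neuropeptide, feeding and hormone genes with a mean of at least 1 FPKM, in order of size. Npy is the 1 gene past an adjusted p of 0.05, most of the rest lie left of 0, and Pmch, Avp and Pomc lie near it.

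Hypothalamic marker genes also had mostly negative differences, and their part in the peptide result was not tested. Of the 12 markers, 10 had negative differences (median −0.12), beside 51.4% of all genes. An unadjusted p under 0.05 was reached by 4, all negative (3.97% of all genes). Hcrt, Gal and Pmch are in both lists. Their summed level ran from 470.5 to 615 in Sleepy and from 595 to 670 in wild-type mice at ZT12.5, and from 536 to 622 and from 535 to 583 at ZT0.5. The median of the peptide list was −0.19 at ZT12.5 and −0.22 at ZT0.5, while that of the hypothalamic markers was −0.24 and −0.081. Thalamus markers had a median of 0.23 (8 of 9 tested positive), meninges markers 0.48 (8 of 8) and blood cell markers 0.43 (5 of 5). The summed thalamus level had a median of 92.1 in Sleepy and 90.7 in wild-type libraries, and the summed meninges level medians of 163 and 79.5 with ranges of 63.6 to 462 and 62.6 to 507. Without the 4 meninges-rich libraries, 7 of the 21 peptide genes had an unadjusted p under 0.05, all negative, with a median of −0.21. Without Sleepy at ZT12.5 replicate 4, the number was 6 and the median −0.22.

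The hormones of the hypothalamo-pituitary axis gave 8 tested genes of 9, none called, with 3 at an unadjusted p under 0.05, all negative (3.97% of all genes), and a median of −0.21. These were Trh, the thyrotropin-releasing hormone (log2 −0.17 ± 0.067; adjusted p = 0.572), Sst, somatostatin (−0.24 ± 0.10; 0.63), and Crh, the corticotropin-releasing hormone (−0.57 ± 0.26; 0.672), of which Sst and Crh are also in the peptide list. Crh was low, at 0.926 ± 0.376 FPKM in Sleepy and 1.37 ± 0.405 in wild-type mice (SD, n = 8 each). Its groups overlapped, with 2 of 8 Sleepy libraries below all wild-type libraries. Sst in wild type at ZT12.5 was high in replicate 3 (97.0 FPKM, against 53.4 to 57.9 in the other 3), and without that library 2 of the 8 hormone genes had an unadjusted p under 0.05. Leaving out any 1 library gave 1 to 4 such genes, the 1 being without wild type at ZT0.5 replicate 1. Oxt and Avp, the magnocellular hormones oxytocin and vasopressin, differed by −0.41 ± 0.22 and −0.045 ± 0.13 and did not pass (adjusted p = 0.715 and 0.955). Among 8 arcuate feeding genes, Npy was called, the other 7 were not, and the median was −0.055; the prohormone convertase Pcsk1 differed by −0.092 ± 0.057 and its inhibitor Pcsk1n by −0.036 ± 0.038.

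Of 22 genes of the CREB family and of known CREB targets, none was called. Their median was −0.13, and 18 were negative, beside 51.4% of all genes. Of the 22, 6 had an unadjusted p under 0.05, all negative, where 3.97% of all genes were negative at that p. Vgf, a secreted granin-like precursor, stood at 40.1, 37.6, 67.3 and 37.4 in wild type and 28.8, 32.7, 30.98 and 30.6 in Sleepy mice at ZT12.5, and at 48.2, 42.9, 40.5 and 39.2 in wild type and 33.02, 33.9, 28.9 and 33.3 in Sleepy mice at ZT0.5. The genotypes did not overlap, and wild type at ZT12.5 replicate 3 was far above the rest (log2 −0.46 ± 0.10; adjusted p = 0.207). Besides Sik1, Pdyn, Sst and Crh, given above, Atf4, a transcription factor of the stress response, was also at an unadjusted p under 0.05 (−0.12 ± 0.038; adjusted p = 0.44). Creb1 itself differed by 0.034 ± 0.046, and the coactivators Crtc1 and Crtc2 by 0.0066 ± 0.036 and 0.094 ± 0.079; Crtc1 was at 0 within its error and its sign turned without rescaling. Without the 4 meninges-rich libraries the list's median was −0.076, with 5 genes at an unadjusted p under 0.05.

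Class IIa histone deacetylases and their partners gave 10 tested genes of 11, none called, with 3 at an unadjusted p under 0.05, all positive (3.41% of all genes), and a median of 0.0089, which turned to −0.0046 without rescaling. These were Hdac9, Hdac5 and the transcription factor Mef2a, a partner of the deacetylases. Without the 4 meninges-rich libraries, 2 positive and 1 negative genes of the list were at that p, with a median of −0.00014. On leaving out 1 library, 2 to 3 positive and 0 to 1 negative genes were. Hdac5 held 9.59, 10.5, 9.51 and 9.26 in wild type and 9.70, 10.99, 11.2 and 12.8 in Sleepy mice at ZT12.5, and 10.9, 10.3, 9.996 and 9.98 in wild type and 11.4, 11.7, 11.03 and 12.4 in Sleepy mice at ZT0.5. All but 1 Sleepy library lay above all wild-type libraries (log2 0.19 ± 0.047; adjusted p = 0.306). Mef2a had a difference of 0.17 ± 0.077, with 5.44 FPKM in Sleepy at ZT12.5 replicate 4 against 3.41 to 3.71 in the other 3 of its group. Hdac4 gave 2.59, 2.86 and 3.12 in Sleepy and 2.70, 2.81 and 3.14 in wild-type mice (lowest, median and highest; log2 −0.010 ± 0.041; adjusted p = 0.967), and Mef2d differed by −0.064 ± 0.036.

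Among 23 kinases and regulators of the Sik3 pathway, none was called and 5 had an unadjusted p under 0.05, all negative (3.97% of all genes), with a median of −0.01. Beside Sik1 and Sik3 these were Prkar1a, the regulatory subunit of protein kinase A (−0.093 ± 0.027; adjusted p = 0.411), Ppp3ca, the catalytic subunit of calcineurin (−0.10 ± 0.037; 0.558), and the 14-3-3 gene Ywhag. Of 38 receptors of arousal transmitters and peptides, none was called and 5 had an unadjusted p under 0.05, all negative (3.97% of all genes), with a median of −0.017. The receptors with the smallest p were Galr1 for galanin (−0.25 ± 0.090), Ghsr for ghrelin (−0.29 ± 0.10), Mc3r for melanocortins (−0.24 ± 0.10) and Mchr1 for melanin-concentrating hormone (−0.23 ± 0.10), with adjusted p-values from 0.529 to 0.654. Leaving out 1 library gave 2 to 5 such receptors, with 3 or fewer for 10 of the 16 libraries, and without the 4 meninges-rich libraries the median turned to 0.0096, with 3 negative and 1 positive of 36 tested at an unadjusted p under 0.05.

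Of 35 genes of hypothalamic identity, none was called, and 27 were negative (median −0.07), beside 51.4% of all genes. Among the 35, 5 negative and 1 positive had an unadjusted p under 0.05, beside 3.97% and 3.41% of all genes. Baiap3 (−0.18 ± 0.046; adjusted p = 0.306), of dense-core vesicle traffic, Hap1 (−0.15 ± 0.040; 0.327), of vesicle transport, Otp (−0.16 ± 0.063), a transcription factor of neuroendocrine neurons, and the prolactin receptor Prlr (−0.16 ± 0.070) led the negative ones. The 1 positive gene missed that p on leaving out any of 10 of the 16 libraries. Leaving out 1 library gave 2 to 8 such negative genes. The number was 2 without Sleepy at ZT12.5 replicate 4, 3 without any of 6 others (wild type at ZT12.5 replicates 1, 2 and 4, Sleepy at ZT12.5 replicate 3 and Sleepy at ZT0.5 replicates 3 and 4) and 8 without wild type at ZT0.5 replicate 3. Of 17 genes of transmitter synthesis and transport tested (19 listed), none was called, and the median was −0.0024. Among the 17, 1 positive and 1 negative had an unadjusted p under 0.05, beside 3.41% and 3.97% of all genes. Leaving out 1 library gave 1 to 3 positive and 0 to 2 negative ones. With all libraries they were the vesicular glutamate transporter Slc17a8 (0.35 ± 0.14) and the nitric oxide synthase Nos1 (−0.12 ± 0.046), while Gad2, which makes GABA, differed by −0.11 ± 0.062. Slc17a8 was a low gene, with means of 0.499 FPKM in Sleepy and 0.372 in wild-type mice. It differed by 0.63 ± 0.17 at ZT12.5 and 0.070 ± 0.17 at ZT0.5.

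The clock and the genes of sleep need showed no call. Of 21 clock genes, 1 was positive at an unadjusted p under 0.05 and none negative, beside 3.41% and 3.97% of all genes. It was Tef, a transcription factor of clock output (0.070 ± 0.026, adjusted p = 0.545). The median of the list was 0.031, and leaving out 1 library gave 1 to 3 such positive genes. Hlf and Cry1 differed by 0.11 ± 0.056 and 0.10 ± 0.055. Rora differed by 0.23 ± 0.13 with 11.7 FPKM in Sleepy at ZT12.5 replicate 4, the library highest in thalamus markers, against 5.31 to 6.02 in the other 3. Of 20 genes that other studies tie to sleep need, 1 was positive at an unadjusted p under 0.05 and none negative, beside 3.41% and 3.97% of all genes. It was the heme oxygenase Hmox1 (0.34 ± 0.13, adjusted p = 0.572), and the median of the list was 0.034. Leaving out 1 library gave 0 to 4 positive and 0 to 3 negative genes of this list at an unadjusted p under 0.05. Fabp7, Cirbp and Hsp90b1 differed by −0.25 ± 0.12, −0.14 ± 0.080 and −0.052 ± 0.029. The remaining 12 lists (among them immediate early genes, glutamate and GABA-A receptors, release machinery, ion channels, chaperones, cholesterol synthesis and interferon response) held no called gene, at most 3 members at an unadjusted p under 0.05 (7.38% of all genes), and medians from −0.044 to 0.10. Some were as one-sided in sign as the peptide list. Negative were 14 of 15 genes of cholesterol synthesis and 16 of 19 of glutamate receptors and postsynaptic scaffold, while 11 of 16 interferon response genes were positive.

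**Figure D3:**
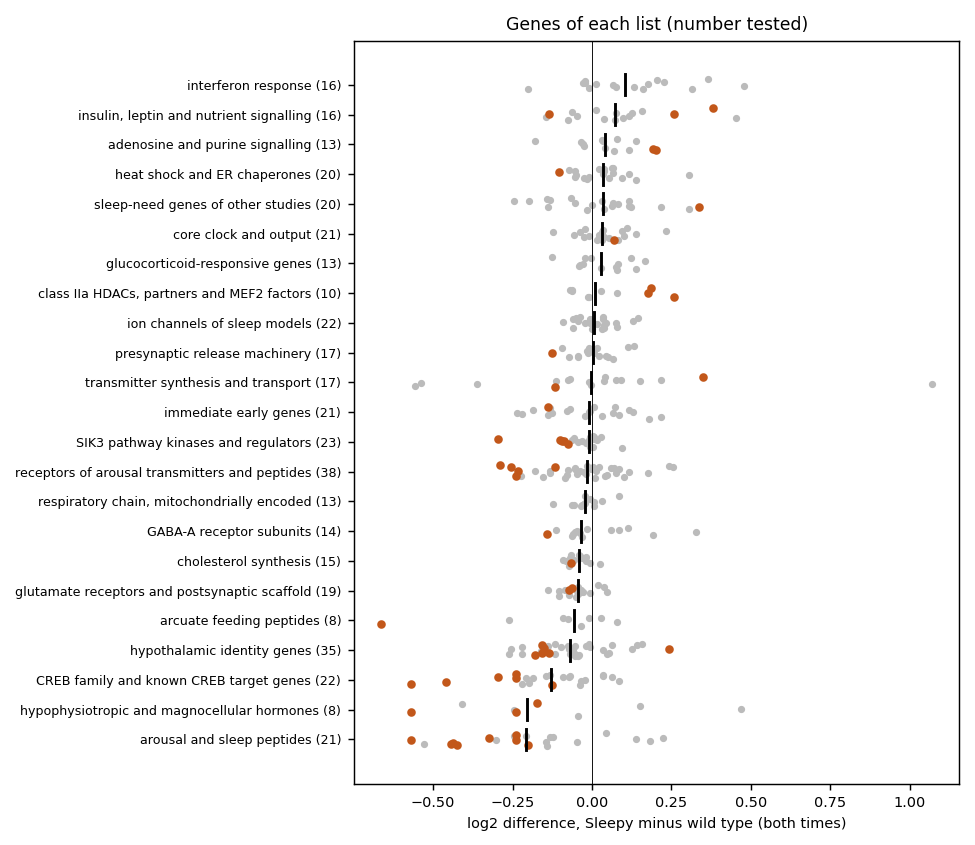
Log2 difference (Sleepy minus wild type over both times) of the genes of each pathway list, with the number tested in parentheses. Points are genes, coloured where the unadjusted p was under 0.05, and black bars are list medians. These were −0.21 for arousal and sleep peptides and for hormones and −0.13 for the CREB family and its known targets, while all others lay between −0.07 and 0.10. Crh and Sst are in the peptide, hormone and CREB lists, and Pdyn and Penk in the peptide and CREB lists.

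Taken at each time alone, no gene passed. At ZT12.5 the fit called 0 of 17250 genes (0.00%) with 1427 (8.27%) at an unadjusted p under 0.05, and at ZT0.5 it called 0 (0.00%) with 845 (4.90%). The test of whether the genotype difference itself changed with time called 0 of 17250 (0.00%), with 879 (5.10%) at an unadjusted p under 0.05. Npy differed by −0.70 ± 0.16 at ZT12.5 and by −0.62 ± 0.16 at ZT0.5, and the difference of these was −0.077 ± 0.22. Ptprn differed by −0.28 ± 0.054 and −0.22 ± 0.054, and Lgi2 by 0.35 ± 0.057 and 0.22 ± 0.057. The same pair of values was 0.37 ± 0.070 and 0.25 ± 0.070 for Pygm, 0.32 ± 0.075 and 0.31 ± 0.075 for Zc3h12c and 0.31 ± 0.059 and 0.20 ± 0.059 for Pigf. Each of these genes had the same sign at both times, which the pooled test that chose them favours. Avp had opposite signs, −0.36 ± 0.14 at ZT12.5 and 0.27 ± 0.14 at ZT0.5, and its change with time did not pass (adjusted p = 0.954; unadjusted p = 0.00632). Fabp7 differed by −0.033 ± 0.155 at ZT12.5 and by −0.46 ± 0.155 at ZT0.5. The same pair was −0.32 ± 0.085 and 0.0006 ± 0.085 for Prlr and −0.25 ± 0.0755 and 0.025 ± 0.0755 for Gad2. Their changes with time did not pass either (limma adjusted p = 0.954 for each).

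**Figure D4:**
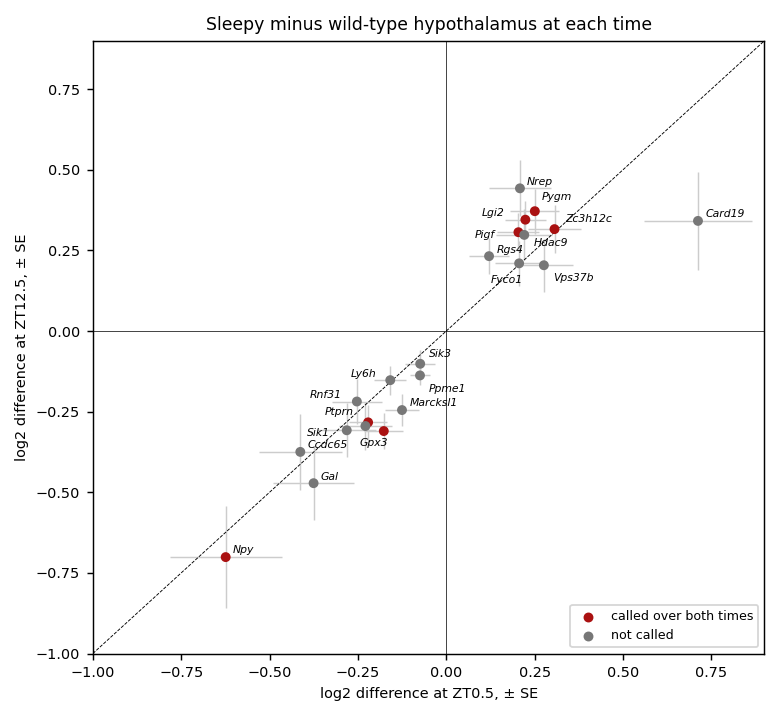
Log2 difference between Sleepy and wild-type hypothalamus at ZT0.5 (horizontal) and at ZT12.5 (vertical), each with its SE, for Sik3, the genes called over both times and the 10 lowest-p genes of each sign. The dashed line marks equal differences; every gene shown has the same sign at both times, with Npy lowest at −0.62 and −0.70.

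The same genotypes were read in thalamus and cortex, each in 16 libraries of the same 4 kinds of mice; whether regions came from the same animals is not given in the sources used here. In thalamus 0 of 16845 genes were called (0.00%), with 1064 (6.32%) at an unadjusted p under 0.05, and in cortex 0 of 16202 (0.00%), with 1005 (6.20%). A test of whether the genotype difference in hypothalamus was unlike that in thalamus called 0 of 17151 genes (0.00%), with 758 (4.42%) at an unadjusted p under 0.05. Against cortex it called 0 of 16918 (0.00%), with 1189 (7.03%). No gene was therefore shown to be particular to hypothalamus. Ptprn differed by −0.24 ± 0.035 in thalamus (adjusted p = 0.0529) and by −0.16 ± 0.033 in cortex (0.309). Zc3h12c differed by 0.21 ± 0.047 and 0.32 ± 0.073, and Pygm by 0.20 ± 0.068 and 0.12 ± 0.062, all 3 genes in the direction seen in hypothalamus.

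Npy differed by −0.12 ± 0.14 in thalamus, where it stood at 5.29 ± 1.29 FPKM in Sleepy and 5.64 ± 0.821 in wild-type mice (SD, n = 8). In cortex, where interneurons express it, it stood at 28.04 ± 4.002 and 34.9 ± 6.57, a difference of −0.31 ± 0.093 with 7 of 8 Sleepy libraries below all wild-type libraries (adjusted p = 0.64). The hypothalamic minus the thalamic difference was −0.56 ± 0.19 and the hypothalamic minus the cortical one −0.37 ± 0.15, neither of which passed (adjusted p = 1 and 0.662; unadjusted p = 0.00682 and 0.0246). Lgi2 differed by 0.024 ± 0.070 in thalamus and 0.16 ± 0.059 in cortex. Pigf differed by 0.040 ± 0.075 and −0.16 ± 0.085, and its cortical difference had the opposite sign; hypothalamus minus cortex was 0.40 ± 0.099 (adjusted p = 0.318; unadjusted p = 0.00042). Sik1 differed by −0.36 ± 0.086 in thalamus and −0.18 ± 0.13 in cortex, and Vgf by −0.29 ± 0.069 and −0.14 ± 0.086, none of them called.

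**Figure D5:**
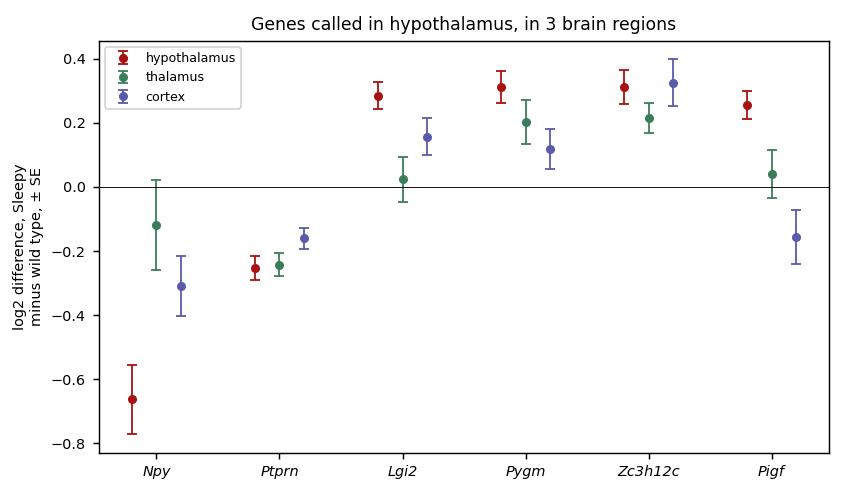
Log2 difference between Sleepy and wild-type mice (both times, bars ± SE) in hypothalamus, thalamus and cortex for the 6 named genes called in hypothalamus. Ptprn, Pygm and Zc3h12c have the same sign in all 3 regions, Npy lies at −0.66 in hypothalamus against −0.12 and −0.31, and Pigf lies below 0 in cortex at −0.16.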

How the data were processed

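Polyadenylated RNA of 16 hypothalamus libraries was analysed, with 32 libraries of thalamus and cortex for comparison. The authors deposited 1 table per library with FPKM for 49585 gene rows, per the file headers. CASAVA 1.9, STAR 2.6.1a, featureCounts, edgeR 3.28.1 and the build GRCm38 are named in the submitters' processing notes; filters, multimapping and strand settings are not given in the sources used here. Per the labels' protocols, a TIANGEN tissue kit gave the RNA and a NEBNext Ultra II kit for DNA the libraries.

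FPKM multiplied by exon length (GENCODE M21, found for 95.2% of 49466 genes) fell on whole steps, with 94.6% to 95.7% of values up to 20 reads within 0.1 of a whole read. These steps gave the depth (14.9 M to 24.5 M reads) and reads per gene. In each hypothalamus library Gm23935 took 30.3% to 36.0% of summed FPKM, so values were rescaled by the trimmed mean of M values on the recovered reads (trims 0.3 and 0.05; factors 0.934 to 1.09). The rescaling moved the median difference from −0.016 to −0.0027. Of gene symbols, 26 that read as dates were dropped and 93 that occurred more than once were kept once.

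limma 3.58.1 in R 4.3.3 was run on log2(FPKM + 0.1) with a variance trend on level, robust shrinkage and p-values adjusted by Benjamini-Hochberg over every gene that averaged 10 recovered reads or more (1 FPKM without a length), and genes were called at an adjusted p under 0.05. This scale understates changes of low genes. The pooled fit had time as a block; single times and the interaction came from 1 fit over all 16 libraries, and region differences from 32 libraries. Each adjusted p is from limma. The procedure was tested on simulated data without tissue differences between libraries, so that test does not cover such differences. Named genes were Sik3, all called genes, the 10 lowest-p genes of each sign with a mean of at least 1 FPKM (without unnamed symbols), and up to 4 lowest-p and the defining members of each described list; 1 gene that the rule chose is not reported here. The members, lists and rules were chosen with earlier results of these data known.

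Replicate numbers are shared between groups, and whether a shared number marks a pair is not given in the sources used here. Libraries with 1 number deviated from their groups with correlations from 0.054 to 0.15 between genotypes at ZT12.5 and from −0.22 to 0.18 at ZT0.5. The numbers were not taken as pairs in the main fit. Libraries of unlike numbers were not compared, so these correlations cannot settle the pairing. The p-values measure the spread between these libraries. The most alike libraries of 1 group correlated at 0.988 across genes.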

Additional observations from a re-analysis of the deposited data

Results flagged for a closer look

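For 65 named genes in 4 groups of 4 libraries, a library was marked where its gap to the nearest other library as a share of the group's range exceeded Dixon's 95% critical value. Chance marks about 1 in 20 such groups, and 13 of 260 were marked. Wild type at ZT12.5 replicate 3 stood high in 5 genes: Vgf at 67.3 FPKM (others 37.4 to 40.1), Sst at 97.0 (53.4 to 57.9), Ptprn at 77.9 (68.0 to 69.2), its antisense neighbour Gm28294 at 169 (145 to 147) and Gpx3 at 41.9 (38.5 to 39.0). Without this library 4 genes were called over both times. Sleepy at ZT12.5 replicate 4, highest in thalamus markers, stood high in Rora at 11.7 (5.31 to 6.02), Mef2a at 5.44 (3.41 to 3.71) and Rgs4 at 26.2 (21.6 to 22.2) and low in Pcsk1 at 8.10 (9.95 to 10.1). Other marked values were Gal at 11 in Sleepy at ZT0.5 replicate 1 (12.7 to 12.9), Mc3r at 0.956 in Sleepy at ZT0.5 replicate 2 (1.22 to 1.24) and Hap1 at 131 in wild type at ZT12.5 replicate 2 (139 to 141). At ZT0.5 in wild type, Atf4 stood at 17.2 in replicate 2 (18.6 to 18.8).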

How the results depend on the processing

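The 7 calls over both times are the fragile result: a pseudocount of 1 or 0.01, a filter at a mean of 1 FPKM, no time block and array weights gave 7, 7, 7, 5 and 6 calls. Limma's voom on recovered reads gave 14 (6 higher, 8 lower), which held 6 of the 7 (without Pigf). Among its other calls were Lama5, Hdac9, Nrep, Gpx3, Gal and Sik1 (voom adjusted p from 0.00834 to 0.038), which the main fit did not call. The count was 0 without rescaling (927 at an unadjusted p under 0.05), 0 with no filter on low values, 0 with no trend and no robust variances, 0 without the 4 meninges-rich libraries and 0 without the thalamus-rich library, the last pair of settings chosen after the data were seen. Leaving out 1 library gave 0 to 5 calls: 5 without wild type at ZT0.5 replicate 1, 4 without replicate 3 of either wild-type group, 1 without replicate 4 of wild type at either time or of Sleepy at ZT0.5, and 0 for each of the other 10.

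With the replicate number as a block, 0 genes were called over both times (1272 at an unadjusted p under 0.05). Whether the numbers pair the libraries is not known. The other 5 comparisons still had 0 calls with this block, as both region differences had with a block of same-numbered libraries across regions, added later. Under the block, genes at an unadjusted p under 0.05 went from 8 to 7 for arousal and sleep peptides, 3 to 2 for hormones, 1 to 2 for arcuate genes and 1 to 0 for positive identity genes. At ZT12.5 voom called 7 genes, and leaving out 1 library gave 0 to 3 (3 without Sleepy at ZT12.5 replicate 2); at ZT0.5 it gave 0 to 1 (1 without Sleepy at ZT0.5 replicate 2). The hypothalamus minus thalamus count was 1 with a filter at 1 FPKM and 1 with no filter, in both cases the short microRNA gene Mir127, named after its value was seen. The interaction, the cortex difference and all other settings run gave 0.

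Of 1819 values of named genes under the alternatives, 1655 kept their direction and side of the threshold, 144 lost the call, 7 gained it and 13 turned sign, all in genes near 0: Crtc1 without rescaling (−0.0069) and without the meninges-rich libraries (−0.012), Avp without the thalamus-rich library (0.0061), and, on leaving out 1 library, Avp (−0.12 to 0.0099), Crtc1 (−0.00798 to 0.026), Hdac4 (−0.023 to 0.0025) and Pomc (−0.13 to 0.013). Only the 7 called genes could lose a call, and most of the 1655 values belong to genes that were never called. Each of the 7 kept its call in 1 to 3 of 16 fits without 1 library and in 4 to 6 of 12 other settings. Npy ranged from −0.72 to −0.60 on leaving out 1 library, with adjusted p-values from 0.0378 to 0.127. The causes were not tested. At 14.9 M to 24.5 M reads per library, genes under 10 mean reads were not tested.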

Other observations

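The lowest coordinate of Zc3h12c lies 6.10 Mb from that of Sik3 on chromosome 9. Of 172 other genes tested within 10 Mb of Sik3, 1 (Zc3h12c) was called, and 19 (11%) had an unadjusted p under 0.05, 8 higher and 11 lower in Sleepy mice, beside 7.38% of all genes; their median log2 difference was 0.0019. This window was chosen after Zc3h12c was seen, and the counts are given without a test.

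The reactive astrocyte list had 7 of 7 tested members above 0 (median 0.24) and 2 at an unadjusted p under 0.05, all positive (3.41% of all genes), with none called. Its summed level had a median of 63.5 FPKM in Sleepy (45.6 to 94.8) and 48.5 in wild-type libraries (45.6 to 68.3). The 4 meninges-rich libraries held 94.8, 74.6 and 66.0 in Sleepy and 68.3 in wild-type mice. Outside these 4, Sleepy at ZT12.5 replicate 3 held 70.0 and wild type at ZT0.5 replicate 2 held 67.4. The part of meninges in this difference was not tested. The neuron list had a median of 0.022, with summed levels of 305 to 377 in Sleepy and 299 to 350.1 in wild-type mice. The marker lists of astrocytes, microglia, oligodendrocytes and their precursors had medians from 0.016 to 0.066, and that of endothelium and pericytes 0.11. Those of striatum, cortex, tanycytes and ependyma, choroid plexus and pituitary had medians of −0.16, −0.16, −0.054, 0.021 and 0.22, with none of their genes called. Of the 6 dorsal raphe and midbrain markers, 2 were tested, both above 0 with a median of 0.80, and neither had an unadjusted p under 0.05. The 6 summed to a median of 13.5 FPKM in Sleepy (0.955 to 17.2) and 6.57 in wild-type libraries (0.540 to 12.5).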
